A study of Danio rerio with 20 samples.

Results

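The genes of respiratory complex I were followed in RNA-seq of the brain of male zebrafish (Danio rerio). Members were the genes of the deposited count table whose symbol, ignoring case, begins with nduf and that had 10 or more counts in 5 or more of the 20 libraries. The table lists 32105 identifiers, of which 26269 were paired with a symbol and 49 had a symbol beginning with nduf. Of these 49, 48 met the rule. The one left out, ndufa4l2b, reached 10 counts in 3 libraries, with a highest count of 13. The least abundant member was ndufa9b, with between 4 and 109 counts. All 48 members also passed the filter on low counts that preceded the tests. They comprise 38 genes of subunits of the complex, 7 assembly factors and 3 genes of the NDUFA4 family. The subunit genes include the copies NDUFA9 and ndufa9b, and NDUFAB1 and ndufab1b. No member had the symbol NDUFA13 or NDUFAF3, and complex I genes listed under another symbol would be missed by the rule.

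Complex I, or NADH:ubiquinone oxidoreductase, is the entry point of electrons from NADH into the mitochondrial respiratory chain. Its peripheral arm reaches into the matrix, where it accepts electrons from NADH through a flavin and passes them along iron-sulphur clusters to ubiquinone. Its membrane arm lies in the inner membrane and pumps protons, which drives the synthesis of ATP. The core subunits of the peripheral arm are encoded in the nucleus and those of the membrane arm in mitochondrial DNA, so the complex is built from the products of both genomes. Accessory subunits surround the core, and assembly factors help to build the complex without remaining in it. The brain depends heavily on oxidative phosphorylation, much of it to restore the ion gradients of active neurons. The roles given below are those known from the mammalian complex.

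The 20 libraries fall into 4 groups of 5, all from male fish of a strain labelled AB JxTu: 3-year fish after the perturbation labelled swim-tunnel, 3-year fish with no perturbation, 1-year fish after swim-tunnel and 1-year fish with no perturbation. Swim tunnels make fish swim against flowing water, and the series describes this group as having physical exercise. The fish are called exercised and unexercised here. The length of the exercise was not given in the sources used here, nor was it stated that every library is a fish of its own, so the p-values speak only of the variation among these libraries, which may be technical. Ages were compared between different fish, and age cannot be told apart from anything else that differed between the fish of each age.

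Libraries held 23390453 to 34587938 counts, with 8.68 to 16.1% of them on mitochondrially encoded genes. Brain markers were abundant, with a mean of 3817 CPM (counts scaled to library size) for the synaptic gene SNAP25 and 10011 CPM for the myelin gene mbpa. Some libraries stood apart. Scores for muscle, retina and pineal, or epidermis genes passed a limit in 6 libraries, 3 of them of 3-year exercised fish (replicates 1, 2 and 4), 1 of 3-year unexercised fish (replicate 3), 1 of 1-year exercised fish (replicate 3) and 1 of 1-year unexercised fish (replicate 1). They are called high-score libraries below. Leaving them out leaves 2 libraries of 3-year exercised fish and 4 in each other group. Muscle scores (mean log2 CPM) were 2.44 and 1.84 in 3-year unexercised replicates 4 and 5, against a median of -0.055 over all libraries. They were 1.60 in 1-year exercised replicate 2 and 1.14 in 1-year unexercised replicate 3. All of these libraries stayed under the limit, so the fits without high-score libraries are not clear of muscle RNA. The mean log2 CPM of the complex I genes was highest in 1-year exercised replicate 4, at 5.96, against 5.47 to 5.76 in the other 19 libraries. The same library was also the highest for genes of complexes II (7.36), III (7.04) and V (8.31) and for other mitochondrial proteins (7.29). It was not the highest for complex IV or the mitochondrially encoded complex I subunits. Where a complex I gene lost its call without the high-score libraries, this is said beside it or as a count.

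Per gene length, complex I genes were among the more abundant transcripts of the brain. Their median level was 73.4 RPKM (reads per kilobase of gene, scaled to library depth and recomputed from the counts), against 4.62 RPKM for the median of all 21148 genes tested, and 47 of the 48 members lay above that median. The highest were NDUFB9, an accessory subunit at the distal end of the membrane arm, with 184 ± 13.3 RPKM (SD, n = 20 libraries), NDUFA4 with 172 ± 24.1 RPKM and ndufa4b with 129 ± 22.8 RPKM. The SDs of NDUFA4 and ndufa4b overlapped each other and that of NDUFA4 reached into the range of NDUFB9.

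The 7 core subunits were even in level, from 63.3 RPKM for NDUFS8 to 106 RPKM for NDUFS7. The accessory subunits of the peripheral arm ran from 2.42 to 129 RPKM, those of the proximal membrane arm from 39.2 to 125 RPKM and those of the distal membrane arm from 26.5 to 184 RPKM. Assembly factors were lower, between 6.80 RPKM for NDUFAF2 and 21.2 RPKM for NDUFAF5, so that each of the 7 lay below the 63.3 RPKM of the lowest core subunit. The lowest members of all were ndufa9b, at 2.42 ± 1.46 RPKM, NDUFAF2, at 6.80 ± 0.835 RPKM, and NDUFAF7, at 6.90 ± 0.572 RPKM. NDUFA9, the other gene of that name, had 43.1 ± 3.49 RPKM. Together the members made up between 0.310 and 0.409% of all counts in a library.

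**Figure D1:**
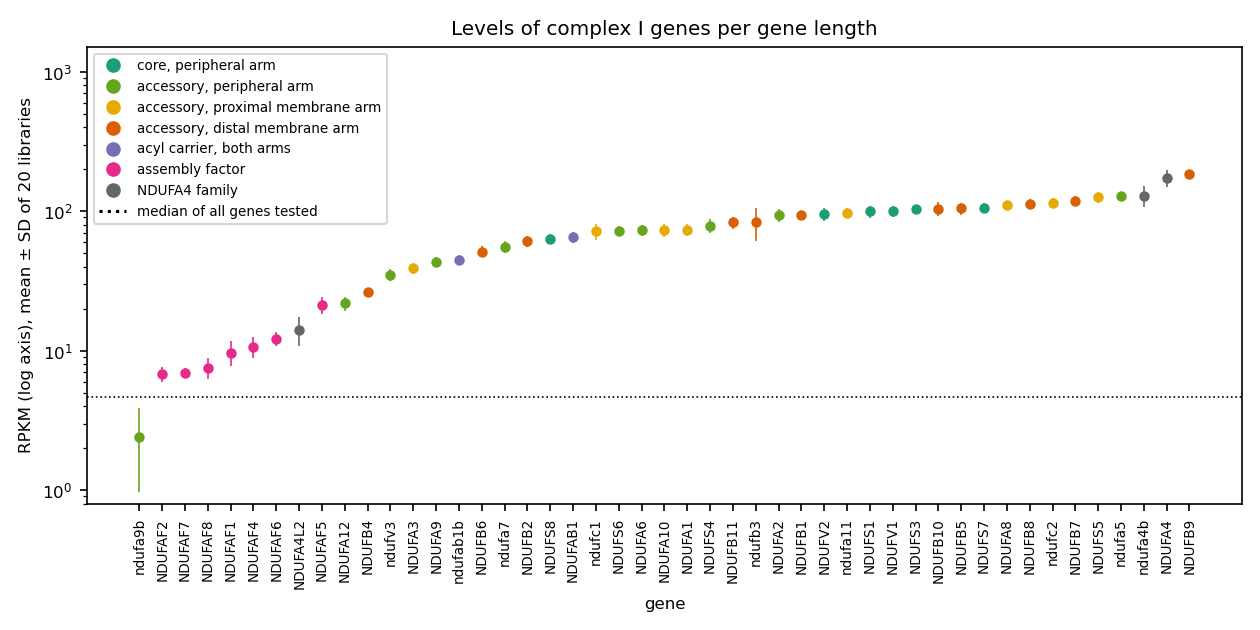
Level of 47 complex I genes per gene length, in RPKM on a log axis, as mean ± SD of 20 libraries. Points are coloured by role, and the dotted line is the median of all genes tested, 4.62 RPKM; 46 of the 47 genes drawn lie above it, and the 7 assembly factors lie between 6.80 and 21.2 RPKM.

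Most members were steady between libraries of a group. The coefficient of variation within groups, averaged over the 4 groups, was smallest for NDUFA8 (6.34%), NDUFB4 (6.42%) and NDUFAF7 (6.47%). It was largest for ndufa9b (65.8%), ndufb3 (27.1%) and NDUFA4L2 (25.2%). The spread of ndufa9b came with a split in its levels, which were 1.55, 1.77, 2.81, 1.45 and 0.117 CPM in 3-year exercised fish and 3.22, 0.159, 1.3997, 0.287 and 0.306 CPM in 3-year unexercised fish. In 1-year fish it had 1.38, 1.47, 3.51, 3.34 and 1.83 CPM with exercise and 1.33, 2.38, 3.06, 3.11 and 1.69 CPM without. Its 4 lowest libraries were all of 3-year fish, 1 exercised and 3 unexercised, and the other 6 libraries of 3-year fish lay within the range of 1-year fish. For ndufb3, an accessory subunit of the distal membrane arm, 1-year exercised fish had 54.8, 51.6, 40.1, 104 and 39.1 CPM, and the 104 CPM of replicate 4 was the highest of all 20 libraries.

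The members also moved together between libraries of the same group. With group means removed, the Pearson correlation of a member with the mean of the other members over 20 libraries had a median of 0.74, and it exceeded 0.50 for 35 of the 48. It ranged from 0.083 for ndufa9b to 0.93 for NDUFB8. All libraries enter with their own depth and their own mix of cells, so these correlations are a description of the libraries. The genes that followed the rest least were ndufa9b, NDUFB10 (0.16), NDUFA4L2 (0.19), NDUFAF7 (0.24) and NDUFA4 (0.24). Relative to each gene's mean over libraries, 1-year exercised replicate 4 was above it for all 48 members, as the plot of members by library shows. Most members lay below it in 1-year exercised replicate 2, 1-year unexercised replicate 2, 3-year unexercised replicates 2, 3 and 4 and all 3-year exercised libraries.

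**Figure D2:**
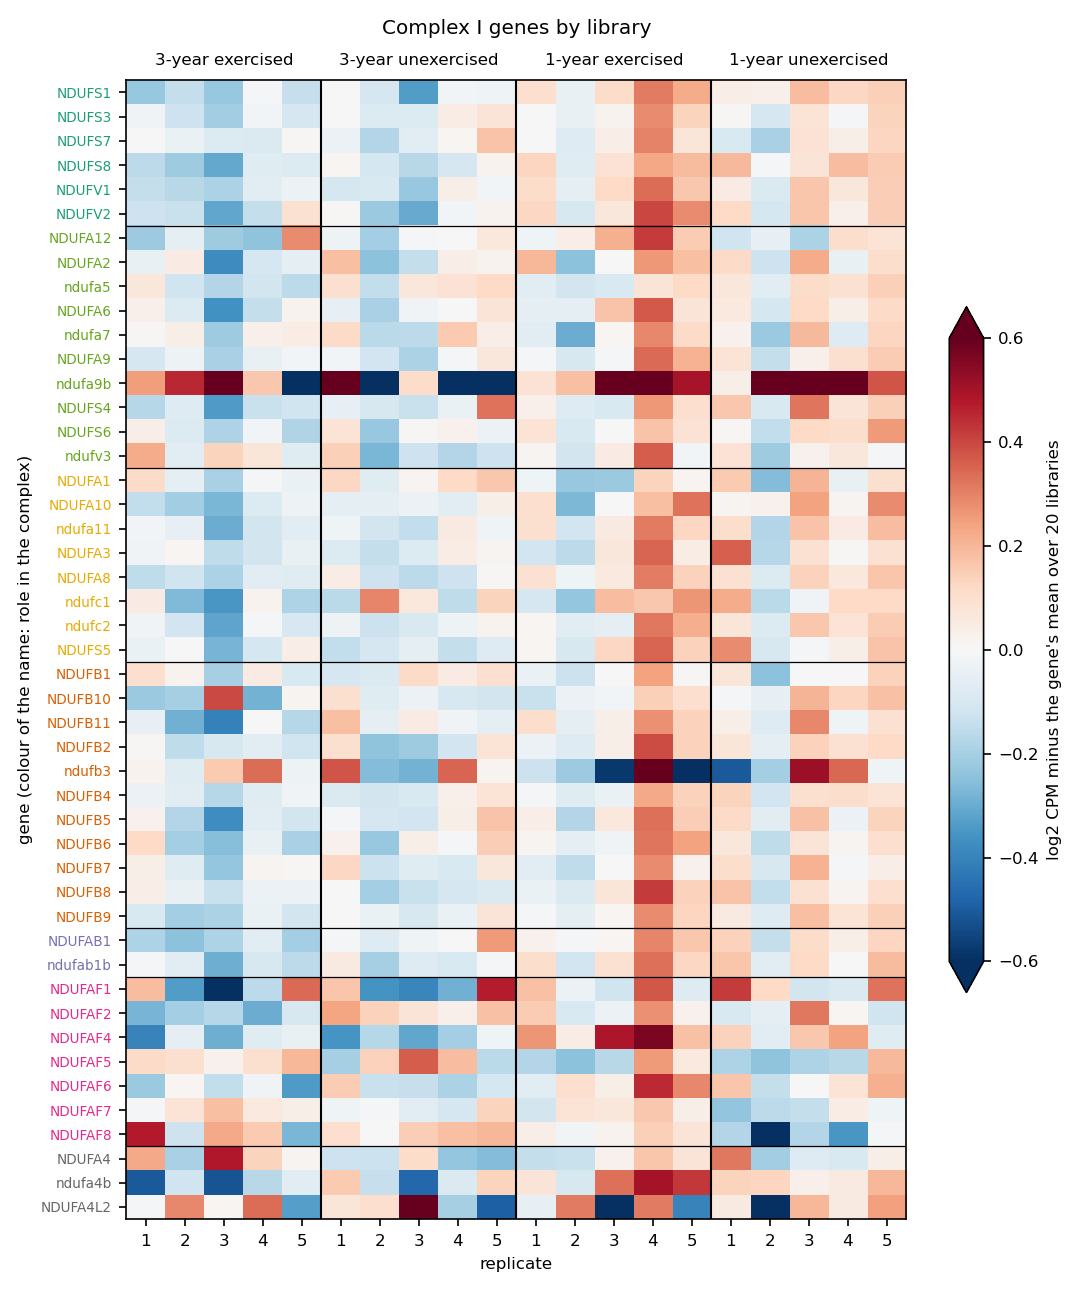
Log2 CPM of 47 complex I genes in 20 libraries (columns, by group and replicate), each as the difference from the gene's mean over all libraries, with colours cut at -0.6 and 0.6. Gene names are coloured by role and horizontal lines separate the roles; most genes are below the mean in all 3-year exercised libraries, 3-year unexercised replicates 2, 3 and 4 and replicate 2 of both 1-year groups, and 1-year exercised replicate 4 is above it for all 47 drawn.

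The 2 by 2 layout asks whether the brain transcriptome differs between ages and after exercise. The complex I genes that passed the test with age were all lower in 3-year fish. In the mean of both exercise groups, 14 of the 48 members fell in 3-year against 1-year fish and 0 rose (edgeR's quasi-likelihood test, Benjamini-Hochberg adjusted p below 0.05 over 21148 genes). That is 29.2% of the members, beside 7.3% of all genes tested that fell and 9.65% that rose, or 16.9% called in all. The median log2 fold change was -0.14 over the members and 0.0034 over all genes tested, and it was negative in 41 of the 48 members. Among the 38 subunit genes it was negative in 36. An unadjusted p below 0.05 was reached by 26 members that were lower and 1 that was higher, beside 31.1% of all genes. The called changes were small, between -0.15 for NDUFB9 and -0.39 for NDUFAF4 on the log2 scale. Across members, the log2 fold change was related only weakly to gene length (Spearman rho -0.22, n = 48) and to the level per length (rho -0.11), given as descriptions.

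Among exercised fish, 9 of the 48 members fell in 3-year against 1-year fish and 0 rose, beside 3.88% of all genes tested that fell, 6.77% that rose and 10.6% called in all. The median log2 fold change was -0.20 over the members and 0.0098 over all genes. An unadjusted p below 0.05 was reached by 26 members, all lower, beside 26.4% of all genes. Both counts rest partly on the same libraries, since the mean over exercise groups contains this comparison, and 7 members fell in both. The libraries of 3-year and 1-year exercised fish did not overlap for 5 members, all lower at 3 years (NDUFS8, NDUFAF4, NDUFAB1, NDUFA8 and NDUFAF2), or 10.4% of the members, beside 4.34% of all genes. Without the 6 high-score libraries, 3 of the 48 members fell in the mean of both exercise groups. In that fit 1411 of all genes tested were called in either direction, a share close to that of the members. All 3 members fell, and the share of all genes that fell in that fit is not given here. Among exercised fish, where 2 libraries of 3-year fish remained, 0 members passed in edgeR, 20 had an unadjusted p below 0.05, and 6 of all genes tested were called. The share of all genes with such an unadjusted p is not given here, so the 20 cannot be set against it. The median log2 fold changes of the members without the high-score libraries were -0.15 and -0.24. Without 1-year exercised replicate 4 alone, 9 members fell in the mean of both exercise groups and 4 among exercised fish. The shares of all genes in that fit are not given here.

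Among unexercised fish, 0 of the 48 members passed the test in edgeR, DESeq2 or limma voom, beside 0.586% of all genes called in either direction. An unadjusted p below 0.05 was reached by 8 members in edgeR, 7 lower and 1 higher at 3 years, by 8 in DESeq2 and by 9 in limma voom, beside 14.1% of all genes in edgeR. The median log2 fold change of the members was -0.098, against -0.0028 over all genes, and it was negative in 41 members. The difference between the age changes of exercised and unexercised fish was tested directly and 0 members passed, so an age change particular to exercised fish was not shown.

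**Figure D3:**
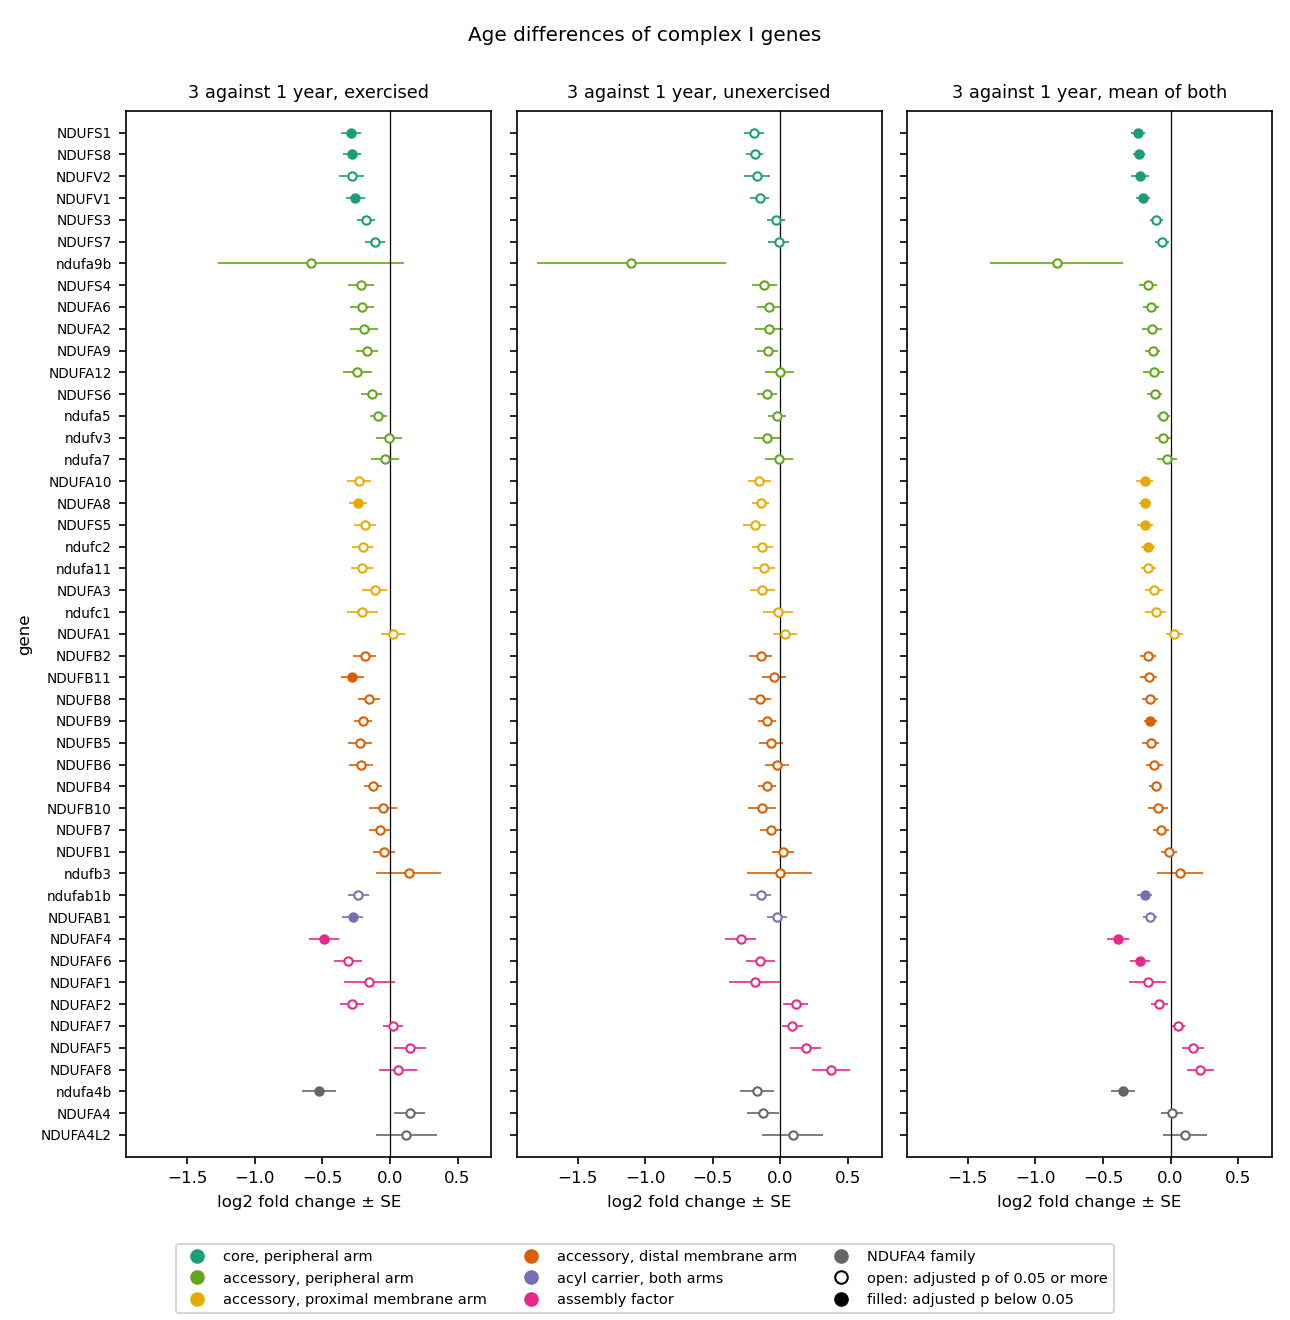
Log2 fold change ± SE of 47 complex I genes at 3 against 1 year, in exercised fish (left), unexercised fish (middle) and the mean of both (right), from edgeR. Genes are grouped and coloured by role and filled points have an adjusted p below 0.05: 8 of those drawn in exercised fish, 0 in unexercised fish and 13 in the mean, all of them negative.

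The core subunits of the peripheral arm, which hold the flavin, the iron-sulphur clusters and the ubiquinone site, had the largest share of called members of any role. In the mean of both exercise groups 5 of the 7 fell, with a median log2 fold change of -0.23, and among exercised fish 4 fell, with a median of -0.28. The smallest p of all members was that of NDUFS8 (ENSDARG00000051986), an iron-sulphur subunit next to the ubiquinone site. It had 89.1, 85.7, 80.2, 94.5 and 93.9 CPM in 3-year exercised fish and 100.1, 92.3, 88.6, 92.6 and 101 CPM in 3-year unexercised fish. One-year fish had 109, 94.5, 105, 117 and 113 CPM with exercise and 114, 99.0, 105, 113 and 110.4 CPM without. Every exercised 3-year library lay below every exercised 1-year library, though 3-year replicate 4 and 1-year replicate 2 were equal to 3 digits, while the unexercised groups overlapped through 1-year replicate 2. NDUFS8 fell over both exercise groups (log2 fold change -0.23 ± 0.045, adjusted p = 0.00252) and among exercised fish (log2 fold change -0.28 ± 0.064, adjusted p = 0.0128). Among unexercised fish its log2 fold change was -0.19 ± 0.064 (adjusted p = 0.195).

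NDUFS1 (ENSDARG00000028546), the largest subunit and the carrier of several iron-sulphur clusters near the NADH site, had 213, 226, 213, 249 and 227 CPM in 3-year exercised fish and 250.2, 233, 198, 247 and 245 CPM in 3-year unexercised fish. Its levels in 1-year fish were 268, 242, 269, 310.3 and 291 CPM with exercise and 257, 255, 284, 272 and 276 CPM without. The unexercised ages did not overlap, and the exercised ages overlapped through 3-year replicate 4 and 1-year replicate 2. NDUFS1 fell over both exercise groups (log2 fold change -0.24 ± 0.052, adjusted p = 0.00445) and among exercised fish (log2 fold change -0.29 ± 0.073, adjusted p = 0.019). Among unexercised fish, where its log2 fold change was -0.19 ± 0.073 (adjusted p = 0.236), it was the only member with 3-year libraries all below 1-year ones, as for 1.36% of all genes.

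NDUFV1, the subunit that binds NADH and the flavin, had 236 ± 10.8 CPM in 3-year exercised and 242 ± 16.8 CPM in 3-year unexercised fish, against 282 ± 27.6 CPM in 1-year exercised and 269 ± 18.5 CPM in 1-year unexercised fish (SD, n = 5 each). It fell over both exercise groups and among exercised fish, by 0.20 (adjusted p = 0.00898) and 0.26 (adjusted p = 0.0261) on the log2 scale. NDUFV2, its iron-sulphur partner, fell over both exercise groups (log2 fold change -0.23 ± 0.067, adjusted p = 0.0252), with an adjusted p of 0.061 among exercised fish. Over both exercise groups, NDUFV1 (-0.18, adjusted p = 0.117) and NDUFV2 (-0.19, adjusted p = 0.230) did not pass without the 6 high-score libraries. NDUFS3 (log2 fold change -0.10 ± 0.046) and NDUFS7 (-0.062 ± 0.054), core subunits of the ubiquinone-binding part, did not pass over both exercise groups (adjusted p = 0.126 and 0.466). Without the 6 high-score libraries, NDUFS1 and NDUFS8 still fell over both exercise groups (adjusted p = 0.0291 and 0.0430). Among exercised fish neither passed without those libraries (adjusted p = 0.129 and 0.158). With 1-year exercised replicate 4 also left out, NDUFS1 alone passed over both exercise groups, at an adjusted p of 0.0459.

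**Figure D4:**
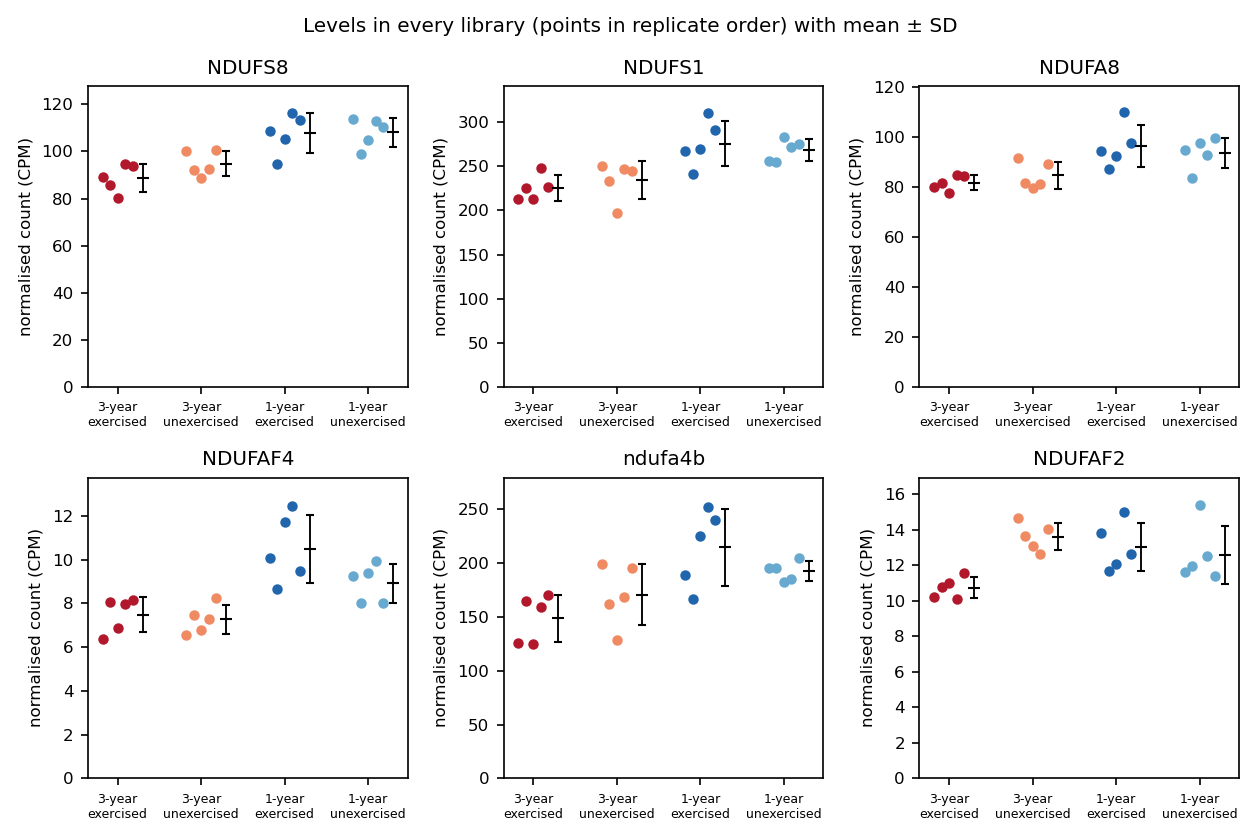
Normalised counts (CPM, axes from 0) of 6 complex I genes in every library, as points in replicate order with the mean ± SD of each group of 5 beside them. For NDUFS8, NDUFA8, NDUFAF4 and NDUFAF2 all 3-year exercised libraries lie below all 1-year exercised ones. For NDUFAF2 all 3-year exercised libraries also lie below all 3-year unexercised ones.

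None of the 10 accessory subunits of the peripheral arm passed the test in edgeR in any of the 3 age comparisons. Over both exercise groups all 10 had negative log2 fold changes (median -0.13), and 4 had an unadjusted p below 0.05. NDUFS4, a subunit needed for the stability of the NADH-binding end, had 43.8 ± 2.98 CPM in 3-year exercised and 49.5 ± 6.82 CPM in 3-year unexercised fish, against 50.8 ± 5.18 CPM in 1-year exercised and 53.7 ± 5.52 CPM in 1-year unexercised fish (SD, n = 5 each). Its log2 fold change over both exercise groups was -0.17 ± 0.066 (adjusted p = 0.0915). For ndufa9b, the log2 fold change was -0.84 ± 0.49 (adjusted p = 0.258), the largest in size of any member and with the largest standard error. Its copy NDUFA9, which sits at the junction of both arms, had -0.13 ± 0.056 (adjusted p = 0.114). The sources used here do not say how reads shared by such copies were counted, so the split between paralogs is uncertain. The other 7 accessory subunits of this arm had log2 fold changes between -0.15 for NDUFA6 and -0.025 for ndufa7. Among exercised fish the median over the 10 was -0.18, and 4 had an unadjusted p below 0.05, none of them among unexercised fish, where the median was -0.089.

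Accessory subunits of the proximal membrane arm, next to the junction with the peripheral arm, included 4 of 8 that fell in the mean of both exercise groups, with a median log2 fold change of -0.17, and 1 that fell among exercised fish. NDUFA8 (ENSDARG00000058041), a subunit of the intermembrane face, had 79.8, 81.7, 77.7, 84.8 and 84.3 CPM in 3-year exercised fish and 94.4, 87.2, 92.2, 109.8 and 97.6 CPM in 1-year exercised fish. These groups did not overlap, with a gap between 84.8 CPM in 3-year replicate 4 and 87.2 CPM in 1-year replicate 2. In unexercised fish it had 91.5, 81.5, 79.6, 81.3 and 89.2 CPM at 3 years and 94.6, 83.7, 97.6, 92.6 and 99.4 CPM at 1 year, which overlapped. NDUFA8 fell over both exercise groups (log2 fold change -0.19 ± 0.045, adjusted p = 0.00808) and among exercised fish (log2 fold change -0.24 ± 0.064, adjusted p = 0.0248). NDUFS5, NDUFA10 and ndufc2 fell over both exercise groups, by 0.19, 0.19 and 0.17 on the log2 scale (adjusted p = 0.0348, 0.0396 and 0.0417). NDUFA8 (-0.18, adjusted p = 0.0956), NDUFS5 (-0.17, adjusted p = 0.190), NDUFA10 (-0.20, adjusted p = 0.179) and ndufc2 (-0.22, adjusted p = 0.0752) did not pass without the 6 high-score libraries. Of the 20 fits that left out 1 library, NDUFS5 kept its call in 10, NDUFA10 in 8 and ndufc2 in 9. The subunits ndufa11 (-0.16 ± 0.057), NDUFA3 (-0.12 ± 0.066) and ndufc1 (-0.11 ± 0.080) did not pass. NDUFA1 was the one subunit of this group with a positive value, 0.028 ± 0.063 (adjusted p = 0.804).

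The distal membrane arm holds the NDUFB subunits. NDUFB9 alone of these 11 fell in the mean of both exercise groups, and 10 of the 11 log2 fold changes were negative, with a median of -0.12. NDUFB9 had 128 ± 6.12 CPM in 3-year exercised and 137 ± 6.16 CPM in 3-year unexercised fish, against 147 ± 14.5 CPM in 1-year exercised and 147 ± 9.89 CPM in 1-year unexercised fish (SD, n = 5 each). It fell over both exercise groups (log2 fold change -0.15 ± 0.046, adjusted p = 0.0325) and kept that call in 10 of the 20 fits that left out 1 library, but not without the 6 high-score libraries (-0.15, adjusted p = 0.147). Among exercised fish NDUFB11 fell (log2 fold change -0.28 ± 0.086, adjusted p = 0.0444), with 65.2, 55.1, 51.0, 67.4 and 59.9 CPM at 3 years and 72.5, 64.8, 69.0, 81.6 and 74.2 CPM at 1 year. These groups overlapped through 3-year replicates 1 and 4 and 1-year replicate 2, and the call was kept in 9 of the 20 fits that left out 1 library. NDUFB11 did not pass among exercised fish without the 6 high-score libraries (-0.40, adjusted p = 0.161). Its log2 fold change over both exercise groups was -0.16 ± 0.061 (adjusted p = 0.0734). The log2 fold change of NDUFB4 over both exercise groups was -0.11 ± 0.046 (adjusted p = 0.107), and that of ndufb3, the one positive value, was 0.066 ± 0.17 (adjusted p = 0.833). The other 7 lay between -0.17 for NDUFB2 and -0.012 for NDUFB1.

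The acyl carrier proteins NDUFAB1 and ndufab1b are copies of the subunit that is built into both arms and also serves mitochondrial fatty acid synthesis. NDUFAB1 (ENSDARG00000058463) had 52.4, 50.3, 52.5, 56.9 and 51.8 CPM in 3-year exercised fish, against 60.7, 59.1, 60.2, 73.1 and 66.6 CPM in 1-year exercised fish. The groups did not overlap, and it fell (log2 fold change -0.28 ± 0.074, adjusted p = 0.0246). NDUFAB1 kept that call in 16 of the 20 fits that left out 1 library, but not without the 6 high-score libraries (-0.31, adjusted p = 0.206). In unexercised fish it had 59.2, 56.5, 58.6, 59.7 and 71.2 CPM at 3 years and 65.6, 54.0, 64.4, 61.2 and 65.2 CPM at 1 year, which overlapped, and 3-year replicate 5 was the highest of these 10 libraries. Its log2 fold change there was -0.024 ± 0.074 (adjusted p = 0.919). The copy ndufab1b fell over both exercise groups (log2 fold change -0.19 ± 0.055, adjusted p = 0.0225), where NDUFAB1 did not pass (adjusted p = 0.0562). Among exercised fish ndufab1b did not pass (adjusted p = 0.0571). Its log2 fold changes were -0.24 ± 0.077 in exercised and -0.15 ± 0.077 in unexercised fish. Over both exercise groups it did not pass without the 6 high-score libraries (-0.22, adjusted p = 0.0878).

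The 7 assembly factors did not share a direction. Over both exercise groups 2 fell, 3 had positive and 4 negative log2 fold changes, and the median was -0.083. NDUFAF4 (ENSDARG00000077859), which acts with NDUFAF3 on the ubiquinone end of the peripheral arm, had the largest called change of all members in that comparison. It had 6.37, 8.06, 6.86, 7.98 and 8.13 CPM in 3-year exercised fish and 6.57, 7.46, 6.77, 7.29 and 8.25 CPM in 3-year unexercised fish. One-year fish had 10.1, 8.66, 11.7, 12.4 and 9.50 CPM with exercise and 9.23, 7.999, 9.38, 9.93 and 7.99 CPM without. The exercised ages did not overlap, while 3-year unexercised replicate 5 lay above 2 of the unexercised 1-year libraries. NDUFAF4 fell by 23.7% over both exercise groups (log2 fold change -0.39 ± 0.080, adjusted p = 0.00344) and among exercised fish (log2 fold change -0.49 ± 0.11, adjusted p = 0.0132). NDUFAF6, a factor of early assembly steps, fell over both exercise groups (log2 fold change -0.23 ± 0.074, adjusted p = 0.0403), a call it kept in 8 of the 20 fits that left out 1 library. Without the 6 high-score libraries neither NDUFAF4 (-0.34, adjusted p = 0.0725) nor NDUFAF6 (-0.27, adjusted p = 0.127) passed.

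NDUFAF8 and NDUFAF5 had positive values. NDUFAF8, a partner of NDUFAF5, which modifies NDUFS7, had 4.25, 3.95, 4.39, 4.49 and 4.55 CPM in 3-year unexercised fish, against 3.51, 2.56, 3.51, 3.11 and 3.95 CPM in 1-year unexercised fish. These groups did not overlap, by a margin below the digits printed, with 3-year libraries above, as for 1.24% of all genes, but the difference did not pass (log2 fold change 0.38 ± 0.14, adjusted p = 0.234, edgeR). In exercised fish it had 4.30 ± 0.882 CPM at 3 years and 4.12 ± 0.170 CPM at 1 year. NDUFAF5 had a log2 fold change of 0.17 ± 0.081 over both exercise groups (adjusted p = 0.169), and NDUFAF7, a methyltransferase, of 0.055 ± 0.053 (adjusted p = 0.512). NDUFAF1, which acts on the membrane arm, had -0.17 ± 0.13 (adjusted p = 0.419). A list of 13 genes without an nduf symbol was drawn up for assembly of the complex, though not all, DMAC2L among them, are established assembly factors. Of these 13, 1 fell, ECSIT, a partner of NDUFAF1, at -0.31 ± 0.053 on the log2 scale (adjusted p = 0.00126). The median of the 13 was -0.055.

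The NDUFA4 family was divided. NDUFA4 was first assigned to complex I and is now placed with cytochrome c oxidase, complex IV, and NDUFA4L2 is a relative induced by low oxygen in mammalian cells. The copy ndufa4b (ENSDARG00000056108) had 126, 164, 125, 159 and 170.2 CPM in 3-year exercised fish, against 189, 167, 225, 252 and 239.8 CPM in 1-year exercised fish. Without exercise it had 199, 162, 129, 168 and 196 CPM at 3 years and 196, 196, 182, 185 and 205 CPM at 1 year. Both pairs overlapped, the exercised pair only through 3-year replicate 5 and 1-year replicate 2. It fell over both exercise groups (log2 fold change -0.35 ± 0.090, adjusted p = 0.0125) and among exercised fish (log2 fold change -0.53 ± 0.13, adjusted p = 0.0158). Over both exercise groups ndufa4b did not pass without the 6 high-score libraries (-0.29, adjusted p = 0.115). NDUFA4 had a log2 fold change of 0.0089 ± 0.082 over both exercise groups (adjusted p = 0.958), and NDUFA4L2 of 0.11 ± 0.16 (adjusted p = 0.699). Reads shared between NDUFA4 and ndufa4b could be split between them by the counting, so the contrast between these copies is uncertain.

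None of the 7 subunits of the membrane arm that mitochondrial DNA encodes passed the age test in edgeR, and 0 had an unadjusted p below 0.05 in any of the 3 age comparisons. Over both exercise groups their log2 fold changes lay between -0.055 for MT-ND5 and 0.057 for MT-ND3, with a median of -0.019 and standard errors of 0.100 to 0.12. MT-ND1, which forms part of the ubiquinone channel, had 3928 ± 376 CPM in 3-year exercised and 4474 ± 1123 CPM in 3-year unexercised fish, against 4188 ± 559 CPM in 1-year exercised and 4309 ± 775 CPM in 1-year unexercised fish (SD, n = 5 each). The standard errors of these genes were larger than the median of 0.061 over the nuclear members, and the difference between the 7 and the nuclear members was not tested. MT-ND6 lies on the strand opposite its neighbours, and the library kit does not mark strand, so its reads cannot be told apart from those of an overlapping gene.

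Of the other nuclear genes of oxidative phosphorylation, 24 of 46 genes of complexes II to V fell in the mean of both exercise groups and 1 rose, COX4I2, an isoform of a complex IV subunit. Among unexercised fish 0 of the 46 passed in edgeR, and 15 had an unadjusted p below 0.05. Of complex II, 3 of 5 fell, with SDHD (ENSDARG00000055712, 1 of 2 identifiers with this symbol) at a log2 fold change of -0.50 ± 0.091 and SDHB at -0.31 ± 0.065. Of complex III, 4 of 9 fell, with UQCRFS1, the Rieske iron-sulphur protein, at -0.30 ± 0.050 and CYC1, cytochrome c1, at -0.28 ± 0.050. Of complex IV, 9 of 18 fell, and of complex V, the ATP synthase, 8 of 14, including its catalytic subunit ATP5F1B at -0.27 ± 0.051. The median over complexes II to V was -0.18, beside -0.14 over the complex I genes. That difference was not tested, and the share called was 52.2% beside 29.2%. Of 13 other mitochondrial proteins 8 fell, among them the channel VDAC3 (-0.44 ± 0.052) and the import pore TOMM40 (-0.34 ± 0.044). Of 14 regulators of mitochondrial biogenesis 2 fell, the coactivator ppargc1b (-0.62 ± 0.13) and the transcription factor subunit GABPB1 (-0.45 ± 0.072), and their median was 0.028. Without the 6 high-score libraries GABPB1 still fell (adjusted p = 0.0136), and ppargc1b (-0.55, adjusted p = 0.0766) and SDHB (-0.28, adjusted p = 0.0763) did not pass. With those libraries left out, 5 genes of complexes II to V fell and 1 rose. The one that rose there was COX6A1 (ENSDARG00000054588, log2 fold change 0.73, adjusted p = 0.0367), named after its value was seen. It was scarce, with group means of 1.79 to 8.11 CPM over all libraries. The gene of the same name in small letters, cox6a1 (ENSDARG00000022438), had group means of 263 to 305 CPM and did not pass (-0.14, adjusted p = 0.305). COX4I2 did not pass either (0.26, adjusted p = 0.159). With the 6 high-score libraries left out, the medians of complexes II, III, IV and V were -0.21, -0.17, -0.18 and -0.18.

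**Figure D5:**
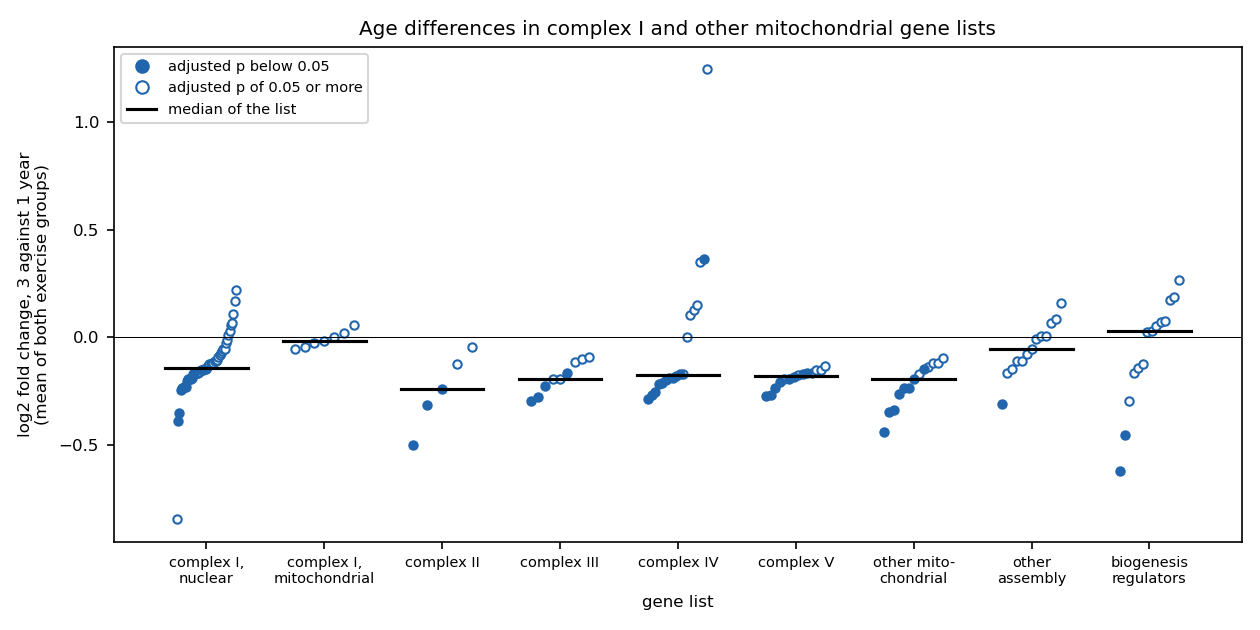
Log2 fold change at 3 against 1 year, in the mean of both exercise groups, of every gene on each list, with the list's median as a line and genes with an adjusted p below 0.05 filled. The median is -0.14 for nuclear complex I genes, -0.019 for the mitochondrially encoded subunits and between -0.18 and -0.24 for complexes II to V.

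Markers of cell types moved with age too. Of 15 neuron genes 4 fell over both exercise groups and 14 had negative log2 fold changes, with a median of -0.17. Their summed level ran from 7449 to 8927 CPM in 3-year exercised and from 8037 to 9695 CPM in 3-year unexercised fish, against 9077 to 10332 CPM in 1-year exercised and 7853 to 10636 CPM in 1-year unexercised fish. Of 13 microglia genes 9 rose, with a median of 1.11, and their summed level ran from 615 to 1056 CPM and from 526 to 901 CPM in 3-year exercised and unexercised fish, against 501 to 584 CPM and 392 to 1113 CPM in 1-year exercised and unexercised fish. Of 9 oligodendrocyte genes 3 rose, and of 10 radial glia genes 1 rose. Among exercised fish 2 neuron genes fell, and 9 microglia, 2 oligodendrocyte, 3 of 27 muscle and 3 of 3 pituitary genes rose. Muscle genes had a median log2 fold change of 1.45 there and pituitary genes of 5.05. In 3-year exercised fish the summed pituitary level was 1706 CPM in replicate 1 and had a median of 3.78 CPM, against a median of 2.32 CPM in 1-year exercised fish. Within 3-year exercised fish the summed muscle level was also highest in replicate 1, at 1019 CPM. Its median was 73.9 CPM in that group, against 77.6 CPM in 1-year exercised fish. In unexercised fish the median muscle level was 373 CPM at 3 years and 76.8 CPM at 1 year. Over all libraries the summed muscle level was highest in 1-year unexercised replicate 1, at 7303 CPM. None of the neuron, microglia, oligodendrocyte or radial glia markers was at 0. The part of these cell types in the complex I result was not tested, and in bulk tissue fewer cells of a type cannot be told apart from less RNA per cell.

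With exercise, 0 complex I genes were called in edgeR at either age. At 1 year 0 of the 48 members passed in edgeR, DESeq2 or limma voom, beside 0.0189% of all genes, and 1 had an unadjusted p below 0.05 in edgeR, with 3 in DESeq2 and 2 in limma voom, beside 11.5% of all genes in edgeR. The median log2 fold change of the members was 0.029, against -0.024 over all genes, and -0.027 without 1-year exercised replicate 4. The member with an unadjusted p below 0.05 was NDUFAF8, with 4.07, 3.93, 4.03, 4.37 and 4.18 CPM in exercised and 3.51, 2.56, 3.51, 3.11 and 3.95 CPM in unexercised 1-year fish (log2 fold change 0.31 ± 0.14, adjusted p = 0.422, edgeR). The exercised libraries were the tighter and overlapped the unexercised ones only through unexercised replicate 5. Next by p were NDUFAF4 (0.24 ± 0.11), NDUFAF7 (0.15 ± 0.075) and NDUFA12 (0.20 ± 0.11), with adjusted p-values of 0.437 to 0.509. By role, the median at 1 year was 0.057 for core subunits, 0.10 for assembly factors and between 0.010 and 0.037 for the other subunit groups.

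At 3 years 0 members passed in edgeR or limma voom, beside 0.0284% of all genes, and 5 had an unadjusted p below 0.05 with each tool, beside 8.07% of all genes in edgeR. DESeq2 called 1, NDUFAF2, at a log2 fold change of -0.35 and an adjusted p of 0.0406. NDUFAF2 (ENSDARG00000069286), which binds the peripheral arm late in assembly and is then released, had 10.2, 10.8, 11.0, 10.1 and 11.6 CPM in 3-year exercised fish, against 14.6, 13.6, 13.1, 12.6 and 14.0 CPM in 3-year unexercised fish. The groups did not overlap, as for 0.875% of all genes that were lower after exercise. In edgeR its log2 fold change was -0.34 ± 0.090 (adjusted p = 0.266). One-year fish had 13.8, 11.6, 12.1, 15.01 and 12.6 CPM with exercise and 11.6, 11.9, 15.4, 12.5 and 11.4 CPM without. The exercised ages did not overlap either, with 3-year libraries lower, and its log2 fold change between them was -0.28 ± 0.090 (adjusted p = 0.0546). Of the unexercised 1-year libraries, 1 lay below the highest 3-year exercised library. The other members with an unadjusted p below 0.05 at 3 years were NDUFAB1 (-0.21 ± 0.074), NDUFB11 (-0.20 ± 0.086), ndufa5 (-0.14 ± 0.066) and, with a positive value, NDUFA4 (0.27 ± 0.12). Their adjusted p-values were 0.433 to 0.584. The median over the members was -0.046, against 0.0047 over all genes, and 38 of the 48 values were negative, among them all 7 core subunits.

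The difference between the exercise effects at 3 years and at 1 year, which is also the difference between the age changes with and without exercise, gave 0 called members with edgeR, DESeq2 or limma voom, beside 0.00473% of all genes. An unadjusted p below 0.05 was reached by 2 members in edgeR, and by 2 in each of the other tools, beside 4.75% of all genes in edgeR. These were NDUFAF2 (log2 difference -0.39 ± 0.13, adjusted p = 0.982, edgeR) and NDUFAB1 (-0.25 ± 0.11, the same adjusted p). Next by p were ndufa4b (-0.35 ± 0.18) and NDUFB11 (-0.23 ± 0.12). The median over the members was -0.087, against 0.0093 over all genes.

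In the mean of both ages, exercise gave 0 called members with edgeR, DESeq2 or limma voom, beside 0.908% of all genes, and 3 with an unadjusted p below 0.05 with each tool, beside 13.8% of all genes in edgeR. The median log2 fold change of the members was -0.015, against -0.016 over all genes, and without 1-year exercised replicate 2 it was 0.010. The 3 members were ndufa5 (-0.11 ± 0.046), NDUFAF2 (-0.15 ± 0.064) and NDUFAF7 (0.12 ± 0.053), and next by p was NDUFS4 (-0.13 ± 0.066). For ndufa5, a subunit of the ubiquinone end of the peripheral arm, levels were 79.1 ± 5.50 CPM in 3-year exercised and 87.4 ± 6.24 CPM in 3-year unexercised fish, and 83.9 ± 6.25 CPM in 1-year exercised and 88.8 ± 4.84 CPM in 1-year unexercised fish (SD, n = 5 each). Of the regulators of mitochondrial biogenesis, 2 of 14 rose with exercise in this comparison, the coactivators PPARGC1A (0.62 ± 0.14, adjusted p = 0.0382) and ppargc1b (0.60 ± 0.13, adjusted p = 0.0284). Without the 6 high-score libraries neither passed, with log2 fold changes of 0.71 (adjusted p = 0.0961) for PPARGC1A and 0.59 (adjusted p = 0.290) for ppargc1b. The highest ppargc1b level of all 20 libraries was in an unexercised one, 227 CPM in 1-year unexercised replicate 5. The rest of that group had 99.1 to 129 CPM. None of the 46 genes of complexes II to V passed in edgeR in this comparison, and 0 had an unadjusted p below 0.05. Among markers, all 18 of retina and pineal had positive log2 fold changes with exercise (median 2.34) and all 11 of epidermis negative ones (median -1.15), with 0 called in edgeR. Retina and pineal scores (mean log2 CPM) were 1.23 to 1.41 in 3 high-score libraries, 3-year exercised replicates 2 and 4 and 1-year exercised replicate 3, and no higher than -1.31 in the other 17. Epidermis scores were 3.50 in 3-year unexercised replicate 3 and 4.39 in 1-year unexercised replicate 1, both of them high-score libraries, and at most 2.18 in the others. The part of these genes in the complex I values was not tested.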

How the data were processed

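Brain RNA of 20 male zebrafish samples was prepared, per the labels' protocols, with an Illumina TruSeq RNA kit, which does not mark strand. The authors deposited raw counts per Ensembl gene and an RPKM table. Per the submitters' processing notes, the tools were STAR 2.4.1d, featureCounts 1.4.6-p4 and bcl2fastq 1.8.4 and the build was GRCz10, with roles and settings not given in the sources used here. In the deposited RPKM table, gene lengths implied by each library's own total varied (median coefficient of variation 13.8% over 10136 genes with more than 200 counts in every library). With totals recycled over the cells of the table the variation was 0.00217%, and 5.00% of values had been divided by their own total. RPKM was therefore recomputed from the counts, and the deposited RPKM values served only for gene length. Symbols came from a reference table, which gives many zebrafish genes in capitals.

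Counts were tested with edgeR 4.0.16 (R 4.3.3, limma 3.58.1): a filter on low counts (minimum count 10, minimum total 15), TMM scaling and the robust quasi-likelihood test. One model with a mean per group over all 20 libraries gave 7 comparisons. Adjusted p-values are Benjamini-Hochberg over 21148 genes, and a gene was called below 0.05. CPM used TMM-scaled library sizes, and library totals were 23390453 to 34587938 counts. The standard error is the size of the log2 fold change over the square root of F. High-score libraries had a muscle, retina and pineal, or epidermis score above the median by more than 1 log2 unit and 3 scaled median absolute deviations. The scaling is R's default, which enlarges the deviation to estimate a standard deviation, so the limit lies higher than with unscaled ones. Alternatives were other scalings, DESeq2 1.42.0, limma voom, other filters, fits of only the groups compared, and fits without libraries. The code was tested on simulated data. The members and gene lists were chosen with earlier results of these data known. Members were named if called (the 6 smallest p-values where over 12 were), among the 4 smallest p-values of a comparison, core, copied, or extreme in level or spread. NDUFS5, NDUFA10, NDUFAF6, ndufc2 and the other members named were chosen after their values were seen. Sequences and genome positions were not used here. One member is included in the counts and medians but is not reported here by name.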

Additional observations from a re-analysis of the deposited data

Results flagged for a closer look

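In each group of 5 libraries, the highest or lowest library of a member was marked when its gap to the nearest library passed Dixon's limit for its share of the group's whole range, which chance passes in about 1 of 20 groups. Of 196 groups examined, 13 (6.63%) were marked, so their number is near that share. The mean log2 CPM over complex I genes was 5.52 in 1-year unexercised replicate 2, below the next library of its group at 5.70. In the same library NDUFB4 had 44.5 CPM, with the next at 51.1, and NDUFA4L2 had 10.2 CPM, with the next at 16.5. Among 3-year unexercised fish, replicate 5 was high for NDUFA10 at 103 CPM (next 98.2), for NDUFAB1 at 71.2 CPM (next 59.7) and for NDUFS4 at 61.5 CPM (next 47.7). In that group ndufa5 was low in replicate 2, at 76.5 CPM (next 88.6), and NDUFAF6 was high in replicate 1, at 14.9 CPM (next 12.5). Among 3-year exercised fish, ndufa5 was high in replicate 1, at 88.6 CPM (next 78.4), and ndufa7 was low in replicate 3, at 23.1 CPM (next 26.9). Among 1-year unexercised fish, NDUFAF2 was high in replicate 3, at 15.4 CPM (next 12.5), and NDUFAF5 in replicate 5, at 29.3 CPM (next 22.8). Among 1-year exercised fish, ndufb3 was high in replicate 4, at 104 CPM (next 54.8).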

How the results depend on the processing

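With age over both exercise groups, 9 complex I genes fell with upper-quartile scaling, 22 with DESeq2, 3 without the 6 high-score libraries and 1 with 1-year exercised replicate 4 also left out, a choice made after the data were seen. Without 1 library each, between 9 and 19 fell, with 19 on leaving out 1-year exercised replicate 2 and 9 when 1-year exercised replicate 4 or 5, 1-year unexercised replicate 5, 3-year exercised replicate 3 or 3-year unexercised replicate 2 was left out, and 9 of the 14 genes remained in every such fit. Among exercised fish, 18 fell with DESeq2, and 0 passed in edgeR without the high-score libraries (20 with an unadjusted p below 0.05) or with 1-year exercised replicate 4 also left out (14). Without 1 library each, between 4 and 16 fell there, namely 4 on leaving out 1-year exercised replicate 4 or 3-year exercised replicate 1, 5 on leaving out 1-year exercised replicate 5 and 16 on leaving out its replicate 2. Of the 9 genes, 3 remained in every fit. Exercise at 3 years gave 1 call with DESeq2. For age over both exercise groups, the calls over all genes with DESeq2 or upper-quartile scaling are not given here. The 22 and 9 complex I genes of those fits therefore have no share of all genes beside them. The same holds for the counts from fits without 1 library each. It also holds for the 20 and 14 members with an unadjusted p below 0.05 in the reduced fits. Swings in these counts cannot be told apart from swings over all genes. Among exercised fish DESeq2 also called more of all genes than edgeR did, with the numbers below. Over all genes tested, calls with age numbered 3584 over both exercise groups, 1411 without the high-score libraries and 612 with 1-year exercised replicate 4 also left out. They numbered 2252 among exercised fish, against 3405 with DESeq2 and 6 and 3 in those reduced fits, and 124 among unexercised fish, against 549 with DESeq2, 66 and 42 in the reduced fits and 46 from these groups alone. With exercise they numbered 4 at 1 year (274 with DESeq2, 17 with limma voom, 8 from these groups alone, 0 in both reduced fits), 6 at 3 years (115 with DESeq2, 3 with limma voom, 1 and 0 in the reduced fits), 192 over both ages (687 with DESeq2, 1 and 2 in the reduced fits) and 1 for the difference between ages (13 with DESeq2, 0 without the filter, without robust dispersions and in the reduced fits). The cause of these changes was not tested, except that fits without libraries hold fewer samples.
No paired analysis was possible because replicate numbers were given in accession order and pair no libraries.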
